A study of Mus musculus with 6 samples.

Results

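The genes that make, lengthen, desaturate and activate fatty acids were compared between Control and PGAM5 KD macrophages after LPS treatment. Members were taken by gene symbol from the GENCODE M21 annotation of the mouse genome (GRCm38), and 34 of the 54532 genes listed in each library were members. Of these, 23 had a mean of at least 1 FPKM over the 6 libraries and were tested among 10540 such genes. FPKM divide a gene's fragments by its exon length and by library depth, so levels of different genes were compared per length.

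The cells were iBMDMs, mouse bone marrow-derived macrophages immortalized with retroviruses carrying v-raf and v-myc. Both groups carried a lentiviral shRNA, a control shRNA in Control and an shRNA against Pgam5 in PGAM5 KD, and both received LPS at 100 ng/ml for 4 hours. Each group had 3 libraries of poly(A) RNA. The labels and methods do not say whether the 3 were separate infections or cultures, so p-values measure the spread between these libraries, which may be technical. With 1 shRNA in each group, the loss of Pgam5 cannot be told apart from other effects of that shRNA or of the infection. All 6 libraries came from cells given LPS, and no untreated cells were analysed here, so no value below is an induction by LPS.

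Fatty acids are built in the cytosol from acetyl-CoA, which ATP citrate lyase releases from exported citrate and acetyl-CoA carboxylase turns into malonyl-CoA. Fatty acid synthase condenses these units into palmitate, which enzymes of the endoplasmic reticulum lengthen in a cycle of condensation, reduction, dehydration and reduction, and into which desaturases place double bonds. Acyl-CoA synthetases join free fatty acids to coenzyme A, and the transcription factors SREBP, LXR and ChREBP drive many of these genes. In macrophages the products serve membranes, lipid droplets and lipid mediators.

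Depth recovered from the FPKM ranged from 18163464 to 24388917 fragments per library. Pgam5, the targeted phosphatase of the mitochondria, was at 17.1, 13 and 13.4 FPKM in the Control libraries and at 4.33, 5.75 and 4.53 FPKM in the PGAM5 KD libraries. The knockdown libraries all lay below the Control libraries, and Pgam5 fell by 66.4% (log2 fold change -1.40, SE 0.127, limma, adjusted p = 0.000358). Of 8 macrophage markers 7 were above 1 FPKM and Mertk was at 0, while all 5 adipocyte and all 5 hepatocyte markers, of cell types rich in these enzymes, were at 0. Of the 7 expressed macrophage markers 4 were higher in PGAM5 KD, Fcgr1 (3.25-fold), Adgre1 (1.91-fold), Itgam (1.85-fold) and Cd14 (1.48-fold), and 3 were lower, Csf1r (0.639-fold), Lyz2 (0.76-fold) and Cd68 (0.868-fold), all past the threshold used below. Their sum, to which Lyz2 contributed most, ran from 2802 to 2894 FPKM in Control and from 2526 to 2545 FPKM in PGAM5 KD, and the part of these markers in the differences below was not tested. At most 0.328 FPKM was found for any summed list of fibroblast, neutrophil or lymphocyte markers.

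Among the fatty acid genes, PGAM5 KD cells had less mRNA for fatty acid synthase, for the polyunsaturated fatty acid desaturases and for the elongases Elovl1 and Elovl6. The same cells had more mRNA for the dehydratase Hacd2 and the acyl-CoA synthetase Acsl4. Fasn fell by 28.8%, and Hacd2 was 1.49-fold higher. At an adjusted p under 0.05 (limma on log2(FPKM + 1), two-sided), 11 of the 23 tested members passed (47.8%), against 31.7% of all genes tested. Higher were Scd1, Hacd1, Hacd2 and Acsl4, 4 of 23 (17.4%, against 16.8% of all genes), and lower were Acaca, Fasn, Fads1, Fads2, Elovl1, Elovl6 and Hsd17b12, 7 of 23 (30.4%, against 14.9%). With values scaled to TPM, which equalizes the library sums, the split became 2 higher and 9 lower among the members, and 1088 higher and 2282 lower against 1771 and 1575 over all genes. No member passed with an absolute log2 fold change above 1, as 1.32% of all genes did.

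The median log2 fold change of the tested members was 0.01, with 12 above and 11 below 0, and that of all genes tested was 0.01. Member libraries did not overlap between the groups for 13 of 23 genes, 5 higher and 8 lower, against 47.1% of all genes (24.2% higher and 22.9% lower). The genes Fasn, Fads1, Fads2, Elovl1, Elovl6 and Hacd2 passed the threshold under each of 17 other ways of treating the data, and Acsl4 under 16. The other 4 calls were less firm, and without any 1 of the PGAM5 KD libraries 7 members remained past the threshold, while all genes past it went from 3346 to between 2340 and 2858. In bulk RNA a smaller number of cells expressing a gene and less of its RNA per cell cannot be told apart.

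**Figure D1:**
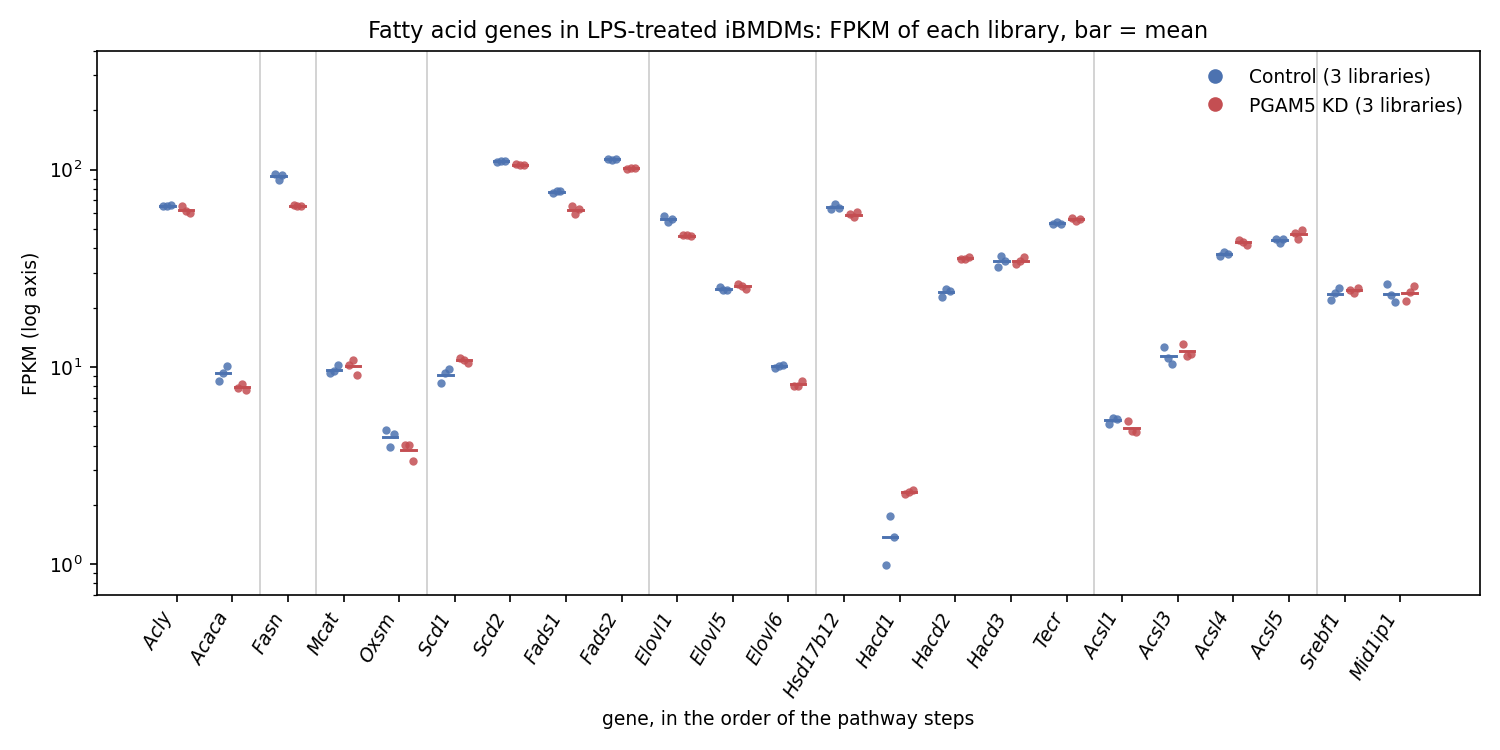
FPKM (log axis) of the 23 tested fatty acid genes in each of 3 Control and 3 PGAM5 KD libraries of LPS-treated iBMDMs, with bars at the means and grey lines between pathway steps. Fasn, Fads1 and Elovl1 lie lower and Hacd2 higher in all PGAM5 KD libraries, while Srebf1 and Mid1ip1 libraries intermingle.

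The start-site regions of the genes with the clearest changes are shown first, since SREBP, NF-Y at CCAAT boxes and Sp factors at GC boxes are known to act at promoters of this pathway. RefSeq start sites (GRCm38.p6) were found for 29 of the 34 members, which have 37 promoters, and Scd1, Scd2, Mcat, Elovl3 and Fads1 had none in the table used. The 250 bases before the start of Fasn lie on the minus strand at chr11:120824548-120824797, those of Elovl1 on the plus strand at chr4:118427843-118428092, and those of Hacd2 on the plus strand at chr16:35022171-35022420. Capitals mark CCAAT or its reverse complement ATTGG in Fasn and Elovl1, and GGGCGG or its reverse complement CCGCCC in Hacd2.
Fasn: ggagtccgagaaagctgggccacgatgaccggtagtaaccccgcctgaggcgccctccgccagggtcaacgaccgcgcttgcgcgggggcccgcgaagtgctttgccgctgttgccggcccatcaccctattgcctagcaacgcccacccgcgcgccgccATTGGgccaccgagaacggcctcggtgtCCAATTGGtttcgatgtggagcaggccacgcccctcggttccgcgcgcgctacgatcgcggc
Elovl1: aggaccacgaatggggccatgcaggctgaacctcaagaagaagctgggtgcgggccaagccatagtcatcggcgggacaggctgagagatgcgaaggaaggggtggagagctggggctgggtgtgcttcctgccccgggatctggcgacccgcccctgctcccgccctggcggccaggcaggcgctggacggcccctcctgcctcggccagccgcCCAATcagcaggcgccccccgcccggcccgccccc
Hacd2: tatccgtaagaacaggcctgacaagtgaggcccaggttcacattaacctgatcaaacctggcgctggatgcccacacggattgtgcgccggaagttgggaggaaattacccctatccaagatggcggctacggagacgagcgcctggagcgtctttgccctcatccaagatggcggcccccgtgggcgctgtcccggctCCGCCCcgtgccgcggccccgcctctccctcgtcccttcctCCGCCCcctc

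Fasn had 3 CCAAT matches in this window, a pair of them overlapping as the word and its reverse complement, and no GC box. Elovl1 had 1 CCAAT match, which overlaps 1 of its 5 GC box matches, and the window before its other start site (chr4:118429451-118429700, not shown) had 0 CCAAT and 2 GC box matches. Hacd2 had 2 GC boxes and no CCAAT. Over both strands, CCAAT occurred before 15 of the 29 members and before 37.5% of all 27025 genes with a start site (33.9% of 32851 promoters). It was present for 3 of the 6 lower members with a promoter, Fasn, Elovl1 and Hsd17b12, and for 0 of the 3 higher ones. GGGCGG occurred before 21 of 29 members and 35.4% of all genes (32.7% of promoters), including Fads2, Elovl1 and Hsd17b12 among the lower and Hacd1, Hacd2 and Acsl4 among the higher members. The SREBP core CACCCCAC occurred before Elovl7, Tecr and Acsl1 and before 2.98% of all genes (2.58% of promoters). The E box CACGTG occurred before Elovl5, Hacd3 and Mlxipl and before 6.86% of all genes (6.02% of promoters). These matches describe letters in a short window and bear on no factor's binding.

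In Control cells the desaturases Fads2 and Scd2 stood highest per length. Fads2 was at 113 ± 1.25 FPKM (SD, n = 3) and Scd2 at 110 ± 0.689 FPKM, followed by Fasn at 92.4 ± 3.29 FPKM and Fads1 at 77.3 ± 0.972 FPKM, and none of these neighbours overlapped. Acly at 65.7 FPKM and Hsd17b12 at 64.7 FPKM overlapped in their libraries, and Elovl1, Tecr and Acsl5 followed without overlap at 56.3, 53.5 and 43.9 FPKM. Acsl4 and Hacd3 overlapped at 37.3 and 34.4 FPKM, and Elovl5, Hacd2, Srebf1 and Mid1ip1 formed a run of overlapping neighbours between 24.9 and 23.5 FPKM. Below Acsl3, at 11.4 FPKM, the genes Elovl6, Mcat, Acaca and Scd1 lay between 10.1 and 9.11 FPKM and each overlapped the next. Acsl1 at 5.37 FPKM, Oxsm at 4.43 FPKM and Hacd1 at 1.37 FPKM closed the order, without overlap.

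Of the tested genes that supply acetyl-CoA and malonyl-CoA, Acaca passed the threshold as lower and Acly did not pass. Acly, ATP citrate lyase, was at 65.6, 65.3 and 66.1 FPKM in Control and at 65.4, 61.5 and 60.2 FPKM in PGAM5 KD. Its libraries overlapped between the groups, with a log2 fold change of -0.07 (95% interval -0.17 to 0.02, limma, adjusted p = 0.186). Scaled to TPM or by quantiles Acly passed the threshold as lower (-0.15 in both, adjusted p = 0.0362 and 0.0249).

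Acaca, the acetyl-CoA carboxylase that commits carbon to fatty acid synthesis (chr11:84129672-84401651, plus strand), was at 8.53, 9.36 and 10.1 FPKM in Control and at 7.81, 8.17 and 7.68 FPKM in PGAM5 KD. The groups did not overlap, and Acaca fell by 15.4% (log2 fold change -0.21, SE 0.066, limma, adjusted p = 0.0471). The call was lost without Control replicate 2 or 3 or without any 1 PGAM5 KD library (adjusted p = 0.0774 to 0.129), and correcting for exon length and GC content brought the log2 fold change to -0.04 (adjusted p = 0.7). The other carboxylase, Acacb, which sits at the mitochondria, was at most 0.183 FPKM and was not tested.

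Fragments of Acaca may be shared with Gm5182, a processed pseudogene on another chromosome (chr12:10152142-10158233, plus strand) that carries a near-identical copy of the Acaca coding sequence. Over 6114 aligned bases the pseudogene matched 99.2% of bases, with 20 substitutions and 29 gap bases, and 66.8% of windows of 100 bases held no difference. The stretches shown are 100 aligned bases of each GENCODE M21 transcript, bases 2967 to 3066 of the Acaca coding sequence and 2047 to 2146 of Gm5182, with the 2 differing bases in capitals. This window has the most differences of those without gaps, and the median window holds 0.
Acaca: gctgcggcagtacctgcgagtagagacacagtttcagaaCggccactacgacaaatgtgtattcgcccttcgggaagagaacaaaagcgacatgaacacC
Gm5182: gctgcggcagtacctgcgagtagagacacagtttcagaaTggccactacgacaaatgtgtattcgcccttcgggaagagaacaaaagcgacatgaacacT

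Gm5182 was listed at 4.21, 4.17 and 3.89 FPKM in Control and at 3.63, 3.73 and 2.88 FPKM in PGAM5 KD, and it held 13.4% of the fragments on both genes. The knockdown libraries lay below the Control libraries, but the log2 fold change of -0.21 did not pass the threshold (SE 0.093, limma, adjusted p = 0.131). With the fragments of Gm5182 added, Acaca was at 10.0, 10.8 and 11.4 FPKM in Control and at 9.11, 9.5 and 8.7 FPKM in PGAM5 KD, again without overlap (log2 fold change -0.22, limma, adjusted p = 0.0336).

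Acss2, which makes acetyl-CoA from acetate, stayed under the filter with 0.785, 0.434 and 0.746 FPKM in Control and 1.05, 0.975 and 1.24 FPKM in PGAM5 KD. All 3 knockdown libraries lay above the Control libraries, and without the filter the log2 fold change was 0.34 (SE 0.12, limma, adjusted p = 0.143). Acss2 shares 395 exon bases with Gss and 197 with Ggt7 on the opposite strand, and whether the library preparation preserved strand is not settled by the protocol. Gss held 76.4% of the fragments on the pair, so part of the Acss2 value cannot be told apart from Gss.

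Fasn, fatty acid synthase (chr11:120805846-120824547, minus strand), was at 94.5, 88.6 and 94.0 FPKM in Control and at 66.2, 65.4 and 65.6 FPKM in PGAM5 KD. All Control libraries lay well above all knockdown libraries, and the spread within the knockdown group was 0.435 FPKM (SD, n = 3). Fasn fell by 28.8% (log2 fold change -0.48, SE 0.035, limma, adjusted p = 0.000151), and over the 17 alternatives its log2 fold change ranged from -0.57 to -0.38. Between 13000 and 20087 fragments per library lay behind these values.

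Within each library Fasn was also set against the enzymes before it, in 2 of 17 ratios between related members that were chosen with their values known. Fasn over Acly averaged 1.41 in Control and 1.06 in PGAM5 KD, a log2 difference of -0.41 (SE 0.041) without overlap. Fasn over Acaca was 9.96 in Control and 8.34 in PGAM5 KD on average and did not overlap either. For each ratio without overlap the exact two-sided permutation test gave p = 0.1, the smallest that 3 against 3 libraries allow, and 0.17 after adjustment over the 17 ratios. Olah, a thioesterase that frees medium-chain products from the synthase, was at 0 in all libraries, where 3 fragments in the shallowest library would be 0.0934 FPKM.

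The mitochondria hold a separate synthesis route that serves lipoic acid. Mcat, its malonyl transferase, ranged from 9.32 to 10.2 FPKM in Control and from 9.09 to 10.8 FPKM in PGAM5 KD, and Oxsm, its condensing enzyme, from 3.93 to 4.78 FPKM and from 3.33 to 4.04 FPKM. Libraries of both genes overlapped between the groups, and neither passed the threshold (limma, adjusted p = 0.638 for Mcat and 0.189 for Oxsm). Mcat shares 53 exon bases with Tspo, and Oxsm shares 21 with Ngly1 and resembles Rpp30 and, with at most 8 fragments in a library, 2010109I03Rik over 211 bases each. With the fragments of all genes that resemble or overlap each of them added, the log2 ratio of PGAM5 KD to Control went from 0.05 to 0.22 for Mcat (exact permutation p = 0.1) and from -0.23 to 0.04 for Oxsm (exact permutation p = 0.6). At most 34.0% of the summed fragments lay on Mcat and at most 14.8% on Oxsm, so these sums mostly report the genes added. Of the other 8 genes of this route in the annotation, from a list of 9 written names, 0 rose and 0 fell (limma, 0 also at an unadjusted p under 0.05), against 31.7% of all genes past the threshold in either direction, and their median log2 fold change was 0.10.

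Of the desaturases, Fads1 and Fads2 fell, Scd1 rose and Scd2 did not pass the threshold. Fads1, Fads2 and Fads3 lie side by side on chromosome 19 (chr19:10041569-10196877 from Fads3 to Fads1), and Fads2 and Fads1 act in turn on essential fatty acids on the way to arachidonate. Fads1 was at 76.2, 77.5 and 78.1 FPKM in Control and at 65.1, 59.8 and 63.1 FPKM in PGAM5 KD. The groups did not overlap, and Fads1 fell by 19.0% (log2 fold change -0.30, SE 0.039, limma, adjusted p = 0.00169).

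Fads2 was at 113, 111 and 114 FPKM in Control and at 100.2, 102 and 102 FPKM in PGAM5 KD. The groups again stood apart, and Fads2 fell by 10.0% (log2 fold change -0.15, SE 0.027, limma, adjusted p = 0.00681). The ratio of Fads2 to Fads1 was 1.46 on average in Control and 1.62 in PGAM5 KD and did not overlap (log2 difference 0.15, SE 0.043, exact permutation p = 0.1, 0.17 adjusted). Fads3, the third gene of the cluster, was at most 0.37 FPKM and was not tested.

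Scd1 and Scd2 place the first double bond into saturated acyl-CoAs, and Scd2 was the main form in these cells. Scd2 was at 109, 110.2 and 110.4 FPKM in Control and at 106, 105 and 106 FPKM in PGAM5 KD. Its libraries did not overlap, but the log2 fold change of -0.06 did not pass the threshold (95% interval -0.12 to 0.01, limma, adjusted p = 0.147). Scaled to TPM or by quantiles Scd2 passed as lower (-0.13 in both, adjusted p = 0.0127 and 0.0112).

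Scd1 was at 8.31, 9.28 and 9.72 FPKM in Control and at 11.1, 10.8 and 10.5 FPKM in PGAM5 KD. Each knockdown library exceeded each Control library, and Scd1 was 1.19-fold higher (log2 fold change 0.23, SE 0.064, limma, adjusted p = 0.0348). The call was lost in 9 of 17 alternatives, among them scaling to TPM (adjusted p = 0.117) and leaving out Control replicate 1 or 2 or any 1 PGAM5 KD library (adjusted p = 0.0652 to 0.0889). The ratio of Scd2 to Scd1 was 13.1, 11.9 and 11.4 in Control and 9.53, 9.73 and 10.1 in PGAM5 KD, without overlap (log2 difference -0.31, SE 0.066, exact permutation p = 0.1, 0.17 adjusted).

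The coding sequences of Scd1 and Scd2 matched at 90.2% of 1059 aligned bases, with 93 substitutions, and 5.0% of windows of 100 bases were free of differences. A window with the median number of differences is shown, unlike the Acaca stretch, which was the most different one without gaps. The 6 bases that differ between Scd1 (coding bases 154 to 253) and Scd2 (163 to 262) are in capitals.
Scd1: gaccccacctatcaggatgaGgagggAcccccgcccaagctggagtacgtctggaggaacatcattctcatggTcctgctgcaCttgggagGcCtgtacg
Scd2: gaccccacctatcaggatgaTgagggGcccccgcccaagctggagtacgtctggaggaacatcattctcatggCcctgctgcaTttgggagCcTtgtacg

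Scd1 held between 6.37% and 8.55% of the fragments on Scd1, Scd2, Scd3 and Scd4, and the log2 ratio of PGAM5 KD to Control for all 4 summed was -0.03. Scd3 and Scd4 were at most 0.37 FPKM on average in either group. Summed over the 5 desaturases, FPKM were 307, 309 and 312 in Control and 283, 278 and 281 in PGAM5 KD, without overlap.

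Among the condensing enzymes of elongation, Elovl1 and Elovl6 fell and Elovl5 did not pass the threshold. Elovl1, which lengthens saturated and monounsaturated very long chains, was at 58.3, 54.6 and 56.0 FPKM in Control and at 46.4, 46.4 and 46.0 FPKM in PGAM5 KD. The groups did not overlap, and Elovl1 fell by 17.7% (log2 fold change -0.28, SE 0.036, limma, adjusted p = 0.00165). It shares 53 exon bases at its end with Cdc20 on the opposite strand, and Cdc20, a cell cycle gene, averaged 91.9 FPKM in Control and 101 FPKM in PGAM5 KD. The fragments of both genes summed gave a log2 ratio of -0.05 (SE 0.0223, exact permutation p = 0.2). Cdc20 held 56.6% of these fragments, so the sum cannot show what the shared bases contribute to the Elovl1 value.

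Elovl6, which turns palmitate into stearate, was at 9.83, 10.2 and 10.2 FPKM in Control and at 8.04, 8.0 and 8.45 FPKM in PGAM5 KD. The groups stood apart, and Elovl6 fell by 18.8% (log2 fold change -0.27, SE 0.047, limma, adjusted p = 0.00579). Summed with the pseudogene Gm11295 and the antisense gene Gm35986, at least 99.4% of fragments lay on Elovl6. Elovl5, which lengthens polyunsaturated chains, was at 25.5, 24.6 and 24.6 FPKM in Control and at 26.2, 25.8 and 24.8 FPKM in PGAM5 KD. Its libraries overlapped (log2 fold change 0.04, 95% interval -0.05 to 0.13, limma, adjusted p = 0.474), and the value was -0.04 when scaled to TPM.

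The ratio of Elovl1 to Elovl5 was 2.29, 2.22 and 2.28 in Control and 1.77, 1.80 and 1.86 in PGAM5 KD. The ratio of Elovl5 to Elovl6 was 2.59, 2.42 and 2.41 in Control and 3.26, 3.22 and 2.93 in PGAM5 KD. Neither ratio overlapped between the groups (exact permutation p = 0.1 for each, 0.17 adjusted), while Elovl1 over Elovl6 averaged 5.60 and 5.67 and overlapped (log2 difference 0.02, SE 0.053). Elovl3 was at most 0.851 FPKM and Elovl4 at most 0.352 FPKM. Elovl2 and Elovl7 were at 0 in all libraries, where 3 fragments in the shallowest library would be 0.0416 and 0.0412 FPKM.

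**Figure D2:**
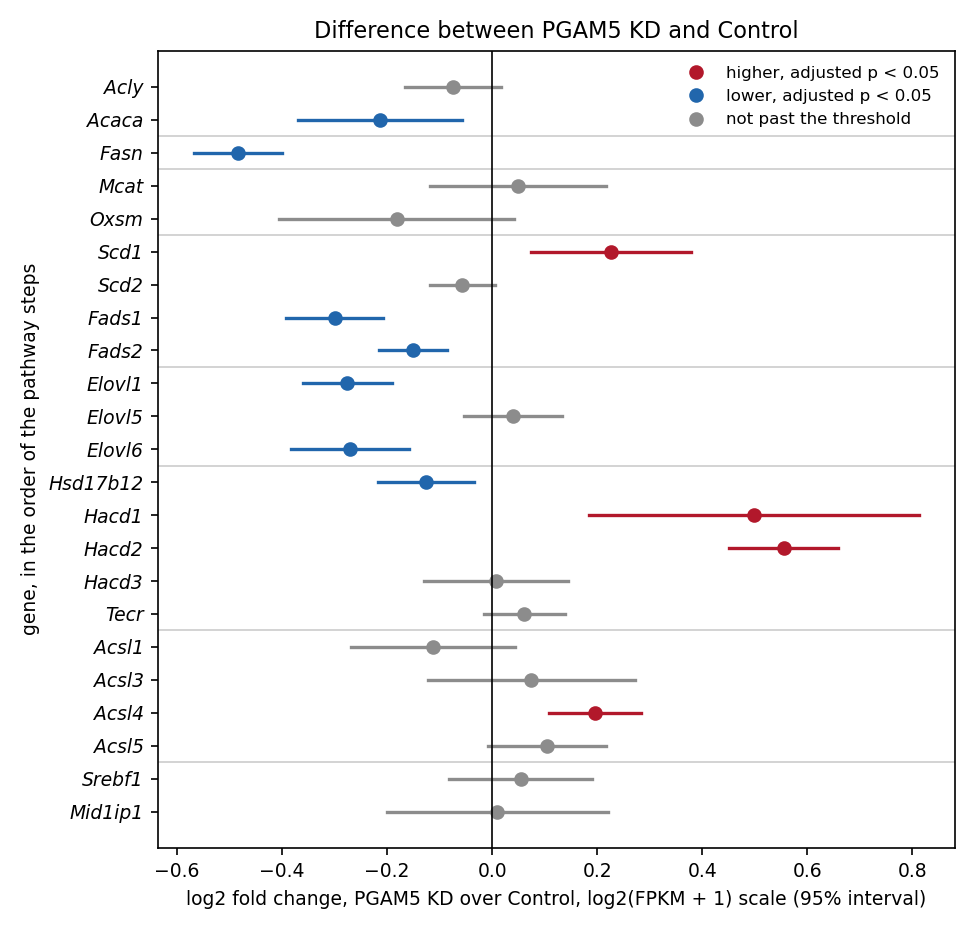
Log2 fold change of PGAM5 KD over Control on the log2(FPKM + 1) scale for the 23 tested members, in pathway order, with 95% intervals from limma. Blue marks the 7 genes lower and red the 4 genes higher at an adjusted p under 0.05, among them Fasn at -0.48 and Hacd2 at 0.56.

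Among the later steps of the elongation cycle, Hacd1 and Hacd2 rose, Hsd17b12 fell, and Hacd3 and Tecr did not pass the threshold. Hacd2, a hydroxyacyl-CoA dehydratase (chr16:35022428-35109177, plus strand), was at 22.6, 24.8 and 24.4 FPKM in Control and at 35.4, 35.3 and 36.2 FPKM in PGAM5 KD. All knockdown libraries lay well above all Control libraries, and Hacd2 was 1.49-fold higher (log2 fold change 0.56, SE 0.044, limma, adjusted p = 0.000195). Over the 17 alternatives its log2 fold change ranged from 0.49 to 0.58. Summed with the pseudogene Gm7908 and the antisense gene Gm21691, at least 99.6% of fragments lay on Hacd2.

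Hacd3, the related dehydratase of similar level, was at 31.9, 36.6 and 34.6 FPKM in Control and at 33.1, 34.3 and 36.1 FPKM in PGAM5 KD. Its libraries overlapped (log2 fold change 0.01, 95% interval -0.13 to 0.14, limma, adjusted p = 0.94). The ratio of Hacd3 to Hacd2 was 1.41, 1.48 and 1.42 in Control and 0.937, 0.972 and 0.998 in PGAM5 KD, so Hacd3 exceeded Hacd2 in all Control libraries and in 0 knockdown libraries (log2 difference -0.57, SE 0.034, exact permutation p = 0.1, 0.17 adjusted).

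Hacd1, best known from muscle, was at 0.988, 1.75 and 1.38 FPKM in Control and at 2.28, 2.31 and 2.38 FPKM in PGAM5 KD, from 38 to 123 fragments per library. The groups did not overlap, and Hacd1 was 1.69-fold higher (log2 fold change 0.50, SE 0.133, limma, adjusted p = 0.0285). The call was lost without Control replicate 1 or 3 or any 1 PGAM5 KD library (adjusted p = 0.057 to 0.0822). The pseudogene Gm11451, 99.5% identical over 377 bases, held 26.6% of the fragments on both, and with its fragments added the log2 ratio went from 0.79 to 0.73. Hacd4 was at most 0.88 FPKM, and Focad, which shares 746 exon bases with it, held 91.4% of the fragments on both. The log2 ratio was 0.15 for Hacd4 alone and -0.17 with Focad added (exact permutation p = 0.4).

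Hsd17b12, the ketoacyl-CoA reductase of the cycle, was at 63.4, 67.1 and 63.5 FPKM in Control and at 59.4, 57.3 and 60.8 FPKM in PGAM5 KD. The groups did not overlap, and Hsd17b12 fell by 8.51% (log2 fold change -0.13, SE 0.039, limma, adjusted p = 0.0461). Leaving out any 1 of the 6 libraries lost this call (adjusted p = 0.0609 to 0.137). Tecr, the enoyl-CoA reductase that closes the cycle, was at 53.3, 54.4 and 52.8 FPKM in Control and at 56.8, 54.6 and 56.3 FPKM in PGAM5 KD. The Tecr libraries did not overlap, but its log2 fold change of 0.06 (adjusted p = 0.197) did not pass the threshold and was -0.02 when scaled to TPM.

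Of the acyl-CoA synthetases, Acsl4 rose and the other 3 did not pass the threshold. Acsl4, which prefers arachidonate and related chains (chrX:142317993-142390535, minus strand), was at 36.4, 38.2 and 37.3 FPKM in Control and at 43.9, 43.0 and 41.7 FPKM in PGAM5 KD. The groups did not overlap, and Acsl4 was 1.15-fold higher (log2 fold change 0.20, SE 0.037, limma, adjusted p = 0.0079). Scaled to TPM the value was 0.12 (adjusted p = 0.0608).

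Acsl5, a synthetase of mitochondria and endoplasmic reticulum, was at 44.7, 42.3 and 44.6 FPKM in Control and at 47.8, 44.6 and 49.4 FPKM in PGAM5 KD. Its libraries overlapped by a narrow margin (log2 fold change 0.10, 95% interval -0.01 to 0.22, limma, adjusted p = 0.14). Acsl3, which acts at lipid droplets, ranged from 10.3 to 12.6 FPKM in Control and from 11.4 to 13.1 FPKM in PGAM5 KD. Acsl1, which is known to be induced in activated macrophages, ranged from 5.16 to 5.51 FPKM and from 4.68 to 5.30 FPKM. Both overlapped between the groups (limma, adjusted p = 0.531 for Acsl3 and 0.238 for Acsl1).

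Acsl4 over Acsl1 was 7.05, 6.94 and 6.85 in Control and 8.28, 9.13 and 8.92 in PGAM5 KD, and Acsl5 over Acsl1 averaged 8.18 and 9.68. Neither overlapped (log2 differences 0.34 and 0.24, exact permutation p = 0.1 for each, 0.17 adjusted), whereas Acsl5 over Acsl4 averaged 1.18 and 1.10 and overlapped. Acsl5 shares 404 exon bases with Zdhhc6 on the opposite strand, and Acsl3 shares 244 with Utp14b on the same strand, which held 29.0% and 28.5% of the fragments on each pair. With the fragments of Utp14b added, the log2 ratio of Acsl3 turned from 0.08 to -0.06 (exact permutation p = 0.5).

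**Figure D3:**
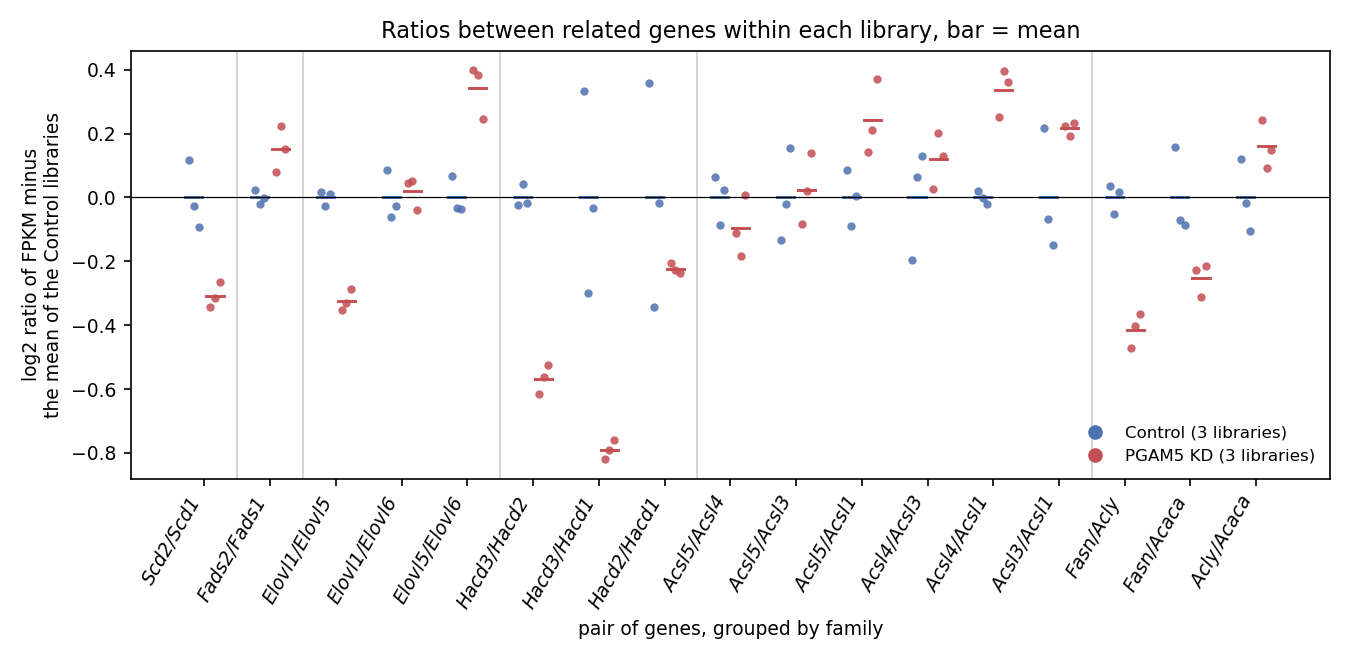
Log2 ratio of FPKM between related genes in each library, minus the mean of the 3 Control libraries, for 17 pairs grouped by family, with bars at the means. Of the 17 pairs, which share genes and were chosen with their values known, 10 do not overlap between Control and PGAM5 KD. Among these are Hacd3/Hacd2 at -0.57 and Fasn/Acly at -0.41. Of single genes 47.1% do not overlap, but no such share was computed for ratios.

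Set side by side as sums over each step, FPKM were lower in PGAM5 KD for supply (75.7 ± 1.11 against 71.5 ± 2.55, SD, n = 3), for the synthase, for desaturation (309 ± 2.70 against 281 ± 2.69) and for condensation (91.7 ± 2.12 against 80.8 ± 0.324). The sum was higher for activation, at 97.9 ± 0.908 in Control and 107 ± 3.18 in PGAM5 KD. None of these sums overlapped (exact permutation p = 0.1 each, the smallest possible), and 47.1% of single genes tested did not overlap either. No such share was computed for sums. Acly, whose own libraries overlapped, made up 65.7 of the 75.7 FPKM of the supply sum in Control. Scaled to TPM, an alternative chosen after seeing the data, the activation sums overlapped, at 321 ± 2.91 TPM in Control and 333 ± 13.2 TPM in PGAM5 KD (SD, n = 3, exact permutation p = 0.3). The lower sums stayed apart, which was fixed in advance, since this scaling lowers PGAM5 KD values relative to Control. Sums of the mitochondrial route (14.1 and 13.9), of the other elongation steps (178 and 188) and of the regulators (47.2 and 48.2) overlapped. Over all 34 members the sum was 904, 905 and 910.2 FPKM in Control and 862, 846 and 859 FPKM in PGAM5 KD, while the sum over all genes was between 304393 and 304889 FPKM in Control and between 317936 and 324298 FPKM in PGAM5 KD.

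The regulators among the members showed no change past the threshold. Srebf1, which encodes the SREBP form that drives fatty acid genes, was at 21.8, 23.7 and 25.2 FPKM in Control and at 24.4, 23.8 and 25.2 FPKM in PGAM5 KD. Its libraries overlapped (log2 fold change 0.05, 95% interval -0.08 to 0.19, limma, adjusted p = 0.511), and gene-level values do not separate its isoforms. Srebf1 shares 109 exon bases with Rai1 on the opposite strand, which held 27.3% of the fragments on both. Mid1ip1, which helps acetyl-CoA carboxylase polymerize, ranged from 21.2 to 26.3 FPKM in Control and from 21.6 to 25.6 FPKM in PGAM5 KD (limma, adjusted p = 0.944). Its relative Thrsp was at most 0.117 FPKM, and Mlxipl, which encodes ChREBP, was at 0 in all libraries, where 3 fragments would be 0.0298 FPKM.

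Genes around the pathway were counted on 7 lists of related functions, to be read against 16.8% higher and 14.9% lower of all genes tested. Of 7 genes of SREBP processing, 1 rose, 2 fell and 4 did not pass, with a median log2 fold change of -0.02. Insig1, which holds SREBP precursors in the endoplasmic reticulum and is itself a known SREBP target, was at 28.2, 29.0 and 29.7 FPKM in Control and at 21.8, 22.0 and 21.6 FPKM in PGAM5 KD. The groups stood far apart (log2 fold change -0.39, SE 0.037, limma, adjusted p = 0.000411). Srebf2, the SREBP gene of sterol synthesis, fell as well (-0.22, adjusted p = 0.00429), and Insig2, the second retention protein, rose (0.28, adjusted p = 0.016).

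Of 6 genes of citrate and NADPH supply, 3 rose, 2 fell and 1 did not pass, with a median of 0.08. Me1, malic enzyme, was at 54.0, 51.8 and 50.9 FPKM in Control and at 73.1, 74.3 and 77.5 FPKM in PGAM5 KD, and Slc25a1, the mitochondrial citrate exporter, was at 24.4, 24.9 and 24.0 FPKM and at 33.1, 33.8 and 30.9 FPKM. Neither overlapped between the groups, with log2 fold changes of 0.51 for Me1 (limma, adjusted p = 0.00017) and 0.40 for Slc25a1 (limma, adjusted p = 0.000846). The pentose phosphate dehydrogenases G6pdx and Pgd, which also yield NADPH, fell (-0.15 for both, adjusted p = 0.0137 and 0.012). The third rise, Idh1, named after its values were seen, did not pass when scaled to TPM (0.08, adjusted p = 0.147).

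Of 8 genes of LXR and its partners and targets, 2 rose, 2 fell and 4 did not pass, with a median of -0.04. Rxra, the partner receptor of LXR, was at 2.65, 2.79 and 3.25 FPKM in Control and at 1.27, 1.45 and 1.33 FPKM in PGAM5 KD, without overlap (log2 fold change -0.73, SE 0.097, limma, adjusted p = 0.00188). Abcg1, a cholesterol exporter, fell (-0.23, adjusted p = 0.0138), while Lpcat3, which places polyunsaturated chains into phospholipids, and Rxrb rose (0.26 and 0.17, adjusted p = 0.0264 and 0.0414). Scaled to TPM, Lpcat3 and Rxrb did not pass (adjusted p = 0.0765 and 0.2). Of 6 tested genes of AMPK, the kinase that phosphorylates acetyl-CoA carboxylase, 1 rose, Prkag1 (0.35, adjusted p = 0.00611), and 5 did not pass.

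Of 6 tested genes of fatty acid uptake and binding, 3 rose, 1 fell and 2 did not pass, with a median of 0.22. Lpl, the lipase that frees fatty acids from lipoproteins, was at 59.4, 58.6 and 60.2 FPKM in Control and at 36.5, 36.2 and 34.1 FPKM in PGAM5 KD, while the fatty acid-binding protein gene Fabp4 was at 3.57, 3.87 and 3.58 FPKM and at 7.50, 7.71 and 8.15 FPKM. Both stood apart between the groups, Lpl lower (log2 fold change -0.72, limma, adjusted p = 3.84e-05) and Fabp4 higher (0.91, limma, adjusted p = 0.000102). Cd36, a fatty acid transporter and scavenger receptor, rose (0.31, adjusted p = 0.0119). The third rise, Fabp5, named after its values were seen, passed in 5 of 17 alternatives and not when scaled to TPM (0.10, adjusted p = 0.175).

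Of 8 tested genes among other acyl-CoA synthetases and thioesterases, 4 rose, 1 fell and 3 did not pass, with a median of 0.25. Acsbg1, a synthetase of long chains, was at 2.66, 2.98 and 3.57 FPKM in Control and at 6.19, 6.45 and 6.95 FPKM in PGAM5 KD, without overlap (log2 fold change 0.89, limma, adjusted p = 0.000711). Slc27a1, a transport protein with synthetase activity, was at 67.7, 67.1 and 70.7 FPKM and at 46.6, 43.3 and 45.8 FPKM, also without overlap (-0.59, limma, adjusted p = 0.000117). The thioesterase gene Acot9 rose (0.44, adjusted p = 0.0062). Acot13, another of the rises, named after its values were seen, passed in 7 of 17 alternatives and not when scaled to TPM (0.10, adjusted p = 0.18).

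**Figure D4:**
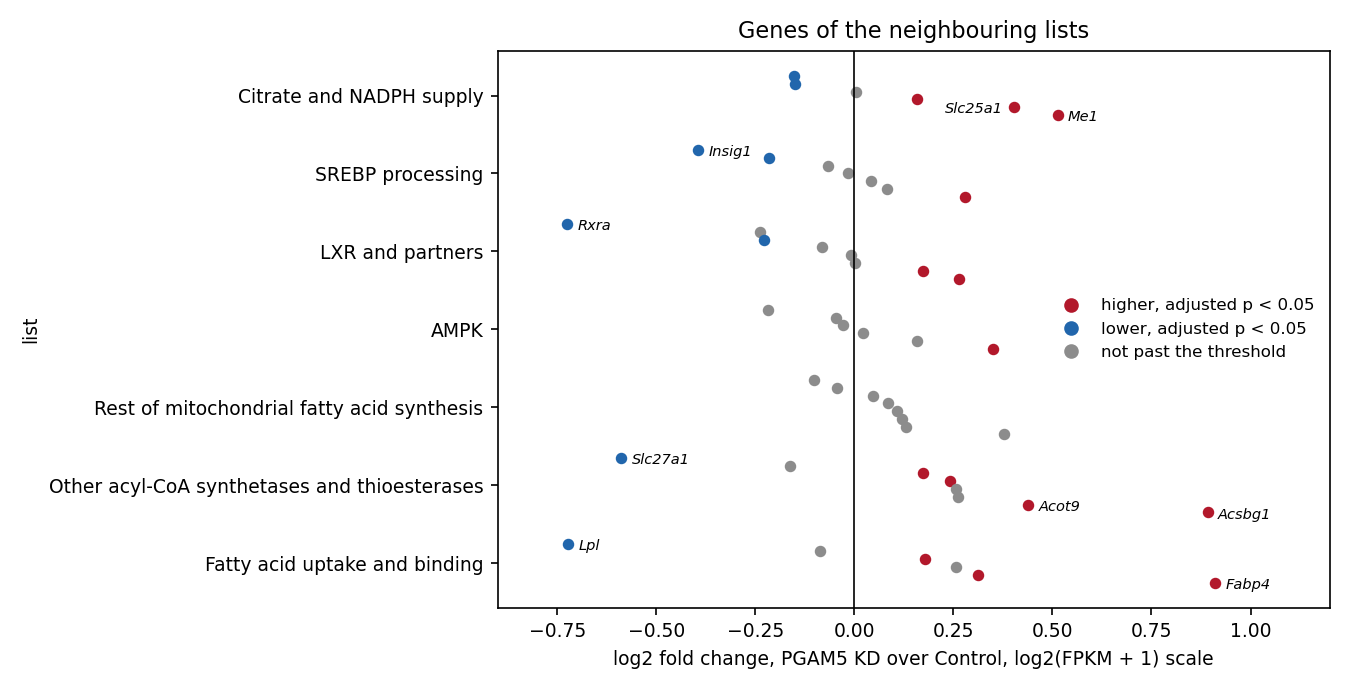
Log2 fold change of PGAM5 KD over Control on the log2(FPKM + 1) scale for the tested genes of 7 lists around the pathway, coloured by whether limma's adjusted p was under 0.05. Lpl at -0.72 and Rxra at -0.73 lie farthest to the left and Fabp4 at 0.91 and Acsbg1 at 0.89 farthest to the right, and the mitochondrial list holds grey points only.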

How the data were processed

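RNA was measured in 3 Control and 3 PGAM5 KD libraries, grouped by their labels. The authors deposited FPKM, 1 table per library, from HISAT2 2.0.5 and featureCounts 1.5.0-p3 on mm10 per the submitters' processing notes, with no scaling between libraries beyond depth. Gene names and exon lengths came from GENCODE M21, which holds 54495 of the 54532 identifiers. FPKM times exon length gave whole fragments within 0.01 for 96.8% to 97.1% of values under 1000 fragments, and depth was read from these.

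From the deposited FPKM, limma 3.58.1 (R 4.3.3) compared log2(FPKM + 1) between the groups for the 10540 genes whose mean FPKM reached 1 (lmFit, eBayes with a trend, two-sided, Benjamini-Hochberg). Fold changes on this scale understate those of low genes. Single ratios and sums had an exact two-sided permutation test over libraries. No count model was run on FPKM, and the procedure was tested on simulated data. Related genes were found with blastn 2.17.0 (at least 85% identity over 200 bases) and by shared exons. GC content came from GENCODE transcripts, since genomic sequence was used here only for the windows before start sites and not for the full genome. No sequence of a protein was used here.

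Named were all members, Pgam5, genes that resemble or overlap a member and hold fragments, at most the 2 largest rises and falls past the threshold in each neighbouring list, and markers that are at 0 or define their cell type. Idh1, Fabp5 and Acot13 fall outside this rule and were named after their values were seen. Members and lists were chosen with earlier results of these data known. Alternatives were a pseudocount of 0.1, no filter, a filter of 5 FPKM, quantile, TPM and median scaling, no trend, voom on recovered fragments, a GC and length correction, a replicate block, summed look-alikes, step sums in TPM, and leaving out each library.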

Additional observations from a re-analysis of the deposited data

How the results depend on the processing

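Over the 23 tested members, and apart from the summed fragments below, 390 values were obtained under the alternatives, of which 39 lost a call, 4 gained one and 23 changed sign, all 23 in genes without a call, and the rest kept direction and side of the threshold. Over all genes, 1088 were higher when scaled to TPM and 1025 lower under the replicate block with the GC and length correction. With no filter 7 of 30 members passed, 2 of them higher, as did 2590 of 20816 genes, and 2 members were higher under TPM and under the block with the correction. Leaving out each library in turn left 7 to 8 members past the threshold, 2 to 3 higher and 5 to 6 lower, and 2340 to 2858 of all 10540 genes. Acaca lost its call with no filter and with no trend (-0.213 in both), by quantiles (-0.211), centred (-0.206), with the GC and length correction (-0.038, also with the block), and over the left-out libraries ranged from -0.269 to -0.162.

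Signs changed under TPM for Mcat (-0.024), Elovl5 (-0.036), Hacd3 (-0.071), Tecr (-0.016), Srebf1 (-0.022) and Mid1ip1 (-0.067), and by quantiles for Hacd3 (-0.028) and Mid1ip1 (-0.016). Under the GC and length correction, with or without the block, they changed for Mcat (-0.027), Hacd3 (-0.031), Tecr (-0.026), Acsl1 (0.006) and Mid1ip1 (-0.081). Leaving out a library changed them for Mcat (range -0.002 to 0.114), Hacd3 (-0.043 to 0.052) and Mid1ip1 (-0.058 to 0.089). With the fragments of related or overlapping genes added, the log2 ratio turned from 0.25 to -0.032 for Scd1, which had a call. Without a call, it turned from -0.226 to 0.036 for Oxsm, from 0.082 to -0.056 for Acsl3 and, under the filter, from 0.15 to -0.17 for Hacd4. At most 8.55% of the summed fragments lay on Scd1, 14.8% on Oxsm and 11.6% on Hacd4, so those sums mostly report the genes added. Acsl3 held at least 64.6% of its sum. Step sums in TPM were added after seeing the data. The cause was not tested.

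Replicate numbers are shared between the groups, but same-numbered libraries did not deviate together (correlations -0.052 to 0.016), and differently numbered ones gave -0.063 to 0.081. These values show no pairing, but they cannot tell whether same-numbered libraries were prepared together, which is not stated. With the replicate block 8 members passed, 3 higher and 5 lower, 2652 genes passed in all, and Acaca stayed at -0.213 without passing.

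Depth limits the low members, among the tested ones Hacd1 above all (38 to 123 fragments per library), and the 11 members under the filter. A design of 3 against 3 libraries cannot give an exact p under 0.1.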
